A study of Mus musculus with 28 samples.

Results

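H3K9me3, the trimethyl mark on lysine 9 of histone H3, was mapped by ChIP-seq in mouse lung tumours, and its 4 peak lists are described here, out of 28 samples in the series. The lists were chosen by the antibody in their titles and split by a tag in the deposited lists' names, which is MLL for replicates 1 and 2 and RAS for replicates 3 and 4. Per the labels' protocols, both kinds of tumour arose in K-RasLSL-G12D mice after Ad-CMV-Cre treatment, and 1 kind also carried Mll4fl/fl. The labels do not say which library belongs to which kind of tumour. MLL was read as Mll4-deleted tumours and RAS as tumours with the K-Ras allele alone, and every difference below is a difference between tags. All groups share the activated K-Ras allele and the virus, so no list comes from normal lung. Ages, sexes, strain background and the time after treatment are not given in the sources used here, and neither is whether a sample came from 1 mouse or from pooled tumours.

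K-RasLSL-G12D is a silent mutant allele of the K-Ras oncogene that Cre recombinase switches on, and Mll4fl/fl denotes floxed alleles of Mll4 (also called Kmt2d) that Cre can delete. Mll4 is a methyltransferase for lysine 4 of histone H3 that acts mainly at enhancers. The virus Ad-CMV-Cre delivers Cre from a broadly active viral promoter, so the infected cells and not a cell type decide where the alleles recombine, and tumour tissue also holds blood vessel, connective and immune cells that kept both alleles.

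H3K9me3 is placed by enzymes of the Suv39h and Setdb1 families and is bound by HP1 proteins, which compact the chromatin. It marks the repeat-rich DNA around centromeres, many endogenous retroviruses, and the 3′ parts of genes for zinc-finger proteins, which lie in clusters. H3K4me1 and H3K27ac mark enhancers and active promoters, H3K4me3 marks promoters, H3K79me2 marks transcribed genes, and H3K27me3 is the mark of Polycomb repression. In bulk tissue, peaks of different marks at 1 place need not come from the same cells.

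The 4 lists held 32303 of the 950444 peaks of the series' 24 lists on chromosomes 1 to 19, X and Y, which is 3.40%. The files give no read counts, so the sequencing depth of each library is unknown, and a deeper library can yield more and wider peaks at the same enrichment. Each peak carries a score, which is the authors' own value. It served to rank peaks inside a list, and an alternative applied a common minimum score to all 4 lists. Best scores of regions over several lists are descriptions, since nothing shows that the scores of different libraries share a scale. Positions are those of the deposited files, with mm9 named as the build in the submitters' processing notes. No gene annotation of that build was used here, so regions are named by position, and lung markers were not checked. Nothing in the labels says that libraries of a tag are separate animals, so a spread between them may be technical.

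The number of H3K9me3 peaks did not separate the tags. Replicates 1 and 2 (MLL) held 7302 and 8533 peaks, and replicates 3 and 4 (RAS) held 5224 and 11244. The RAS lists were the shortest and the longest of the 4 and enclosed both MLL lists. The means were 7917.5 ± 870 for MLL and 8234 ± 4257 for RAS (SD, n = 2 each), and the difference of mean log2 values, MLL minus RAS, was 0.0426. The exact two-sided permutation test gave p = 1 (adjusted over 5 tests, 1). With 2 lists against 2 the smallest p this test allows is 0.333, so none of the 5 comparisons could pass 0.05. The sign turned with the library left out, from -0.51 without replicate 3 and -0.07 without replicate 2 to 0.60 without replicate 4.

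The covered length, the bases under at least 1 peak, was 5.82 and 4.02 Mb in the MLL lists and 2.07 and 5.90 Mb in the RAS lists. Replicate 3 was lowest, and replicates 1 and 4 were nearly level at the top. The MLL mean was 4.92 ± 1.28 Mb and the RAS mean 3.99 ± 2.71 Mb (SD, n = 2 each), a log2 difference of 0.47 (exact permutation p = 1, adjusted 1), smaller than the spread between the RAS lists. Without replicate 3 the difference was -0.29.

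Most H3K9me3 peaks were narrow in every list. The median width was 537 and 287 bp in the MLL lists and 250 and 374 bp in the RAS lists, so the lists of the tags interleaved. The middle 50% of the peaks lay between 387 and 820.75 bp in replicate 1, between 214 and 466 bp in replicate 2, between 223 and 365 bp in replicate 3 and between 271 and 536 bp in replicate 4. Replicate 1 had the highest median and quartiles, while the widest single peak, of 16258 bp, was in replicate 4. Peaks of 1 kb or more made up 18.5% of replicate 1, against 8.31%, 5.19% and 8.03% of replicates 2, 3 and 4. Domains of 5 kb or more numbered 64 and 23 in the MLL lists and 9 and 34 in the RAS lists. The log2 difference in median width was 0.36 (exact permutation p = 0.667, adjusted 1), and it was -0.09 without replicate 1, the library that set its direction.

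**Figure D1:**
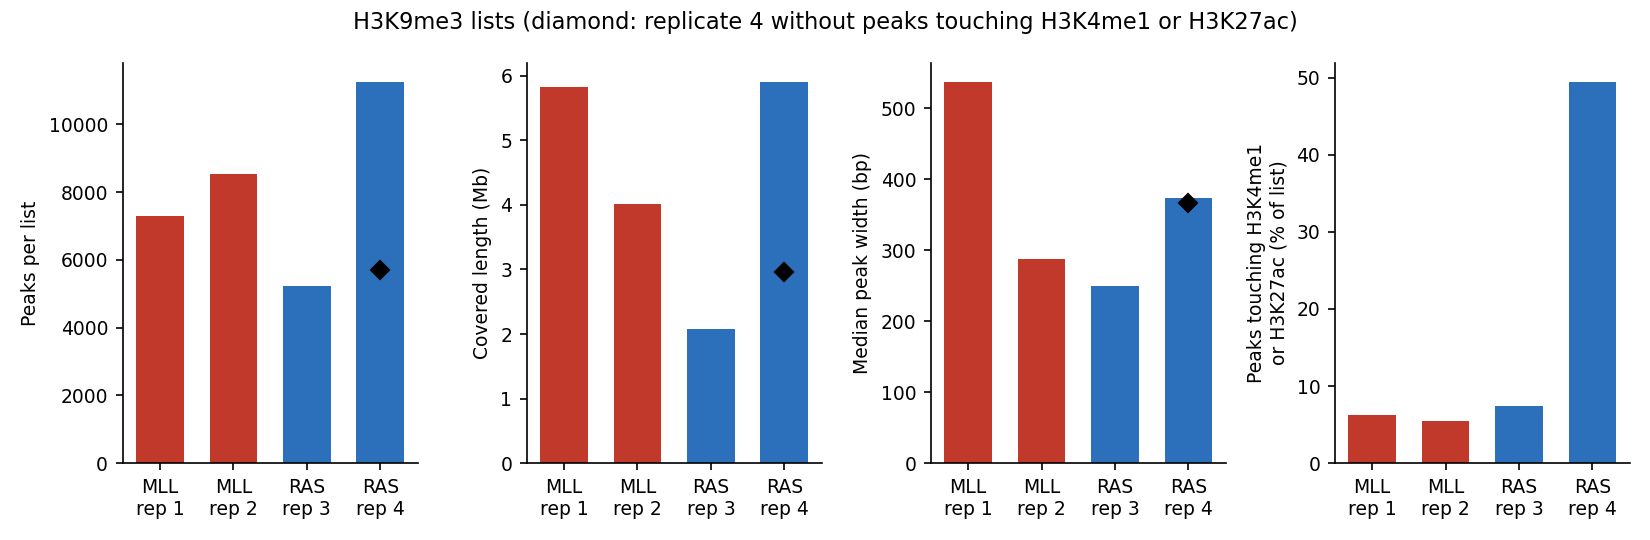
Peak number, covered length (Mb), median peak width (bp) and share of peaks touching an H3K4me1 or H3K27ac peak (%) in each H3K9me3 list, 1 bar per list, red for MLL and blue for RAS. The black diamond is replicate 4 without its peaks that touch either enhancer mark, where 5688 peaks and 2.96 Mb remain of 11244 peaks and 5.90 Mb while the median width goes only from 374 to 366 bp.

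Replicate 4 stood apart in the company its peaks keep. Of its 11244 peaks, 5556 (49.4%) overlapped, by 1 bp or more, an H3K4me1 or H3K27ac peak in any of the 8 lists of those marks. The same share was 6.24% in replicate 1, 5.53% in replicate 2 and 7.47% in replicate 3. The share was 22.6 percentage points lower in MLL (exact permutation p = 0.333, the smallest possible, adjusted 1). Replicate 4 had been singled out beforehand for these peaks, so this p-value is no test of the tags. The difference rested on that library, and without it the MLL list mean was lower by only 1.58 points. Against the marks of its own replicate number alone, 42.9% of the replicate 4 peaks touched H3K4me1 or H3K27ac, against 0.315%, 4.29% and 1.34% in replicates 1 to 3. H3K79me2, the mark of transcribed gene bodies, showed the same contrast, with 43.6% of replicate 4 peaks touching it in any list against 8.50% to 10.2% of the peaks of the other 3.

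The replicate 4 peaks at enhancer marks were set beside its other peaks. Of the 5556 peaks that touched H3K4me1 or H3K27ac, 8.17% also touched another H3K9me3 list, against 58.9% of the 5688 that did not. The split bears on this by itself, since only 456, 472 and 390 peaks of replicates 1, 2 and 3 touched those marks, and the shares are a description. Their median score was 64.5, against 80.0, while the median widths were similar, at 380 and 366 bp. H3K79me2 was touched by 73.0% of the first set and 14.9% of the second. The touching peaks mostly coincided with H3K79me2. What brought both marks to these places was not tested.

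With these 5556 peaks left out of replicate 4, the tags no longer overlapped in number or covered length. The RAS lists then held 5224 and 5688 peaks against 7302 and 8533 in MLL, 1.45-fold more in MLL (log2 difference 0.53, exact permutation p = 0.333). The covered length was 2.07 and 2.96 Mb in RAS against 5.82 and 4.02 Mb in MLL, 1.95-fold more in MLL (log2 difference 0.96, exact permutation p = 0.333). Both p-values are the smallest that 4 lists allow, and they are no test of the tags. The filter could only lower replicate 4, a RAS list, so it moved both differences towards MLL by construction. Leaving such peaks out of all 4 lists, and not of replicate 4 alone, gave 6846 and 8061 peaks in MLL and 4834 and 5688 in RAS. The covered length was then 4.86 and 3.38 Mb against 1.66 and 2.96 Mb, again with both MLL lists above both RAS lists. The median widths still interleaved, with 366 bp in replicate 4. They no longer did so when the filter was joined with equal list lengths of the 5224 best-scored peaks, a setting chosen after seeing the data, where the log2 difference in median width was 0.72 (exact permutation p = 0.333). The part of sequencing depth in these numbers was not tested, since the files do not hold it.

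The peak sets were next compared pair by pair by their Jaccard index, which divides the bases common to a pair of lists by the bases that either covers. By this index the 2 MLL lists were the most alike of all 6 pairs, with an index of 0.388 and 2.75 Mb shared. The 2 RAS lists were the least alike, with 0.175 and 1.19 Mb shared. The 4 pairs across tags lay between, at 0.238 and 0.219 for replicate 1 with replicates 3 and 4, and 0.292 and 0.220 for replicate 2 with replicates 3 and 4. By this index replicate 3 (RAS) was closer to either MLL list than to the other RAS list. The mean within a tag was 0.282 and the mean between tags 0.242, a difference of 0.0395 (exact permutation p = 0.667, adjusted 1). It was -0.0805 without replicate 1 and -0.0534 without replicate 2, where no pair of MLL lists remains. Leaving out the enhancer-marked peaks of replicate 4 changed the index of the 2 RAS lists little, to 0.170. The order depended on the filter and on the index. With enhancer-marked peaks left out of all 4 lists, the RAS pair had 0.184 and the pair of replicates 1 and 3 had 0.173. With the shared bases divided by the shorter list of a pair instead, the RAS pair had 0.574, above replicate 4 with replicates 1 and 2 (0.362 and 0.445), and replicates 1 and 3 were the most alike (0.732, against 0.685 for the MLL pair). The filter on replicate 4 turned this order, and the RAS pair then had 0.353 by this measure, below replicate 4 with replicates 1 and 2 (0.517 and 0.421) and the lowest of the 6 pairs.

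The strongest H3K9me3 peaks were largely common to both tags. Of the 1000 best-scored peaks of replicate 1, 97.3% touched a replicate 2 peak, 85.5% a replicate 3 peak and 85.4% a replicate 4 peak. Of those of replicate 3, 93.7% and 95% touched the MLL lists and 89.8% touched replicate 4. Of those of replicate 4, 78% and 81% touched the MLL lists and 71.7% touched replicate 3. Over whole lists the shares were lower in every pair. Of all replicate 1 peaks, 51.0%, 28.6% and 34.0% touched replicates 2, 3 and 4. Of all replicate 3 peaks, 62.5%, 57.5% and 45.0% touched replicates 1, 2 and 4. The lowest share was 17.7%, for replicate 4 peaks that touched replicate 3. In every pair the 1000 best-scored peaks thus touched the other list more often than the peaks of the whole list did. Peaks of lower score were not compared as a set of their own. The differences were not confined to the weakest peaks, since regions of both MLL lists alone, described below, had peaks near their lists' median scores. The filter on replicate 4 also took away some of the shared strong peaks. With it, the best peaks of replicates 1, 2 and 3 touched replicate 4 in 75.6%, 66.8% and 64.6% of cases. Before it, these shares were 85.4%, 83.7% and 89.8%. Of the best peaks of the filtered replicate 4, 77.3%, 77.2% and 62.5% touched replicates 1, 2 and 3.

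To find regions of 1 tag, all peaks of the 4 lists were merged where they overlapped, which gave 19412 regions. Of these, 14578 (75.1%) were held by 1 list alone, 2385 by 2 lists, 1237 by 3 and 1212 by all 4. Replicate 4 alone held 7440 regions, against 2767, 2854 and 1517 for replicates 1, 2 and 3 alone. Regions in both MLL lists and no RAS list numbered 1245, which is 6.41% of all regions. Regions in both RAS lists and no MLL list numbered 87, which is 0.448%. The 4 pairings of 1 MLL with 1 RAS list held 1053 regions in total, so a pair across tags held more regions of its own, on average, than the pair of RAS lists. No test for a single region can pass with 2 lists against 2, and the count of each kind moves with the length of the lists.

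Leaving out the enhancer-marked peaks of replicate 4 left 14365 regions, of which 1285 (8.95%) were in both MLL lists alone and 66 (0.459%) in both RAS lists alone. The filter can turn a region of 3 lists into an MLL-only one, and with such peaks left out of all 4 lists the counts were 1227 (8.58%) and 114 (0.797%) of 14304. The number of peaks per list was then made equal by taking the 5224 best-scored peaks of each. This gave 799 MLL-only regions (7.15%) and 97 RAS-only regions (0.868%) of 11181. With both steps together the counts were 713 (6.62%) and 104 (0.966%) of 10768. In each of these settings the pair of MLL lists held several times more regions of its own than the pair of RAS lists, and the MLL count was lower by more than 1.5 times when list lengths were equal.

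Without replicate 3, the shortest list, the regions of replicate 4 with no MLL peak numbered 7536 of 17942 (42%). Without replicate 4, the regions of replicate 3 with no MLL peak numbered 1637 of 12186 (13.4%). The regions of both MLL lists with no peak in the remaining RAS list were 1692 (9.43%) and 1845 (15.1%), respectively. With 1 MLL list left out, the regions of the other MLL list with no RAS peak numbered 4737 of 18014 (26.3%, replicate 1 left out) and 4118 of 16766 (24.6%, replicate 2 left out). Those of both RAS lists with no peak in it numbered 219 (1.22%) and 187 (1.12%). Requiring both lists of a tag thus took most regions away for either tag.

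**Figure D2:**
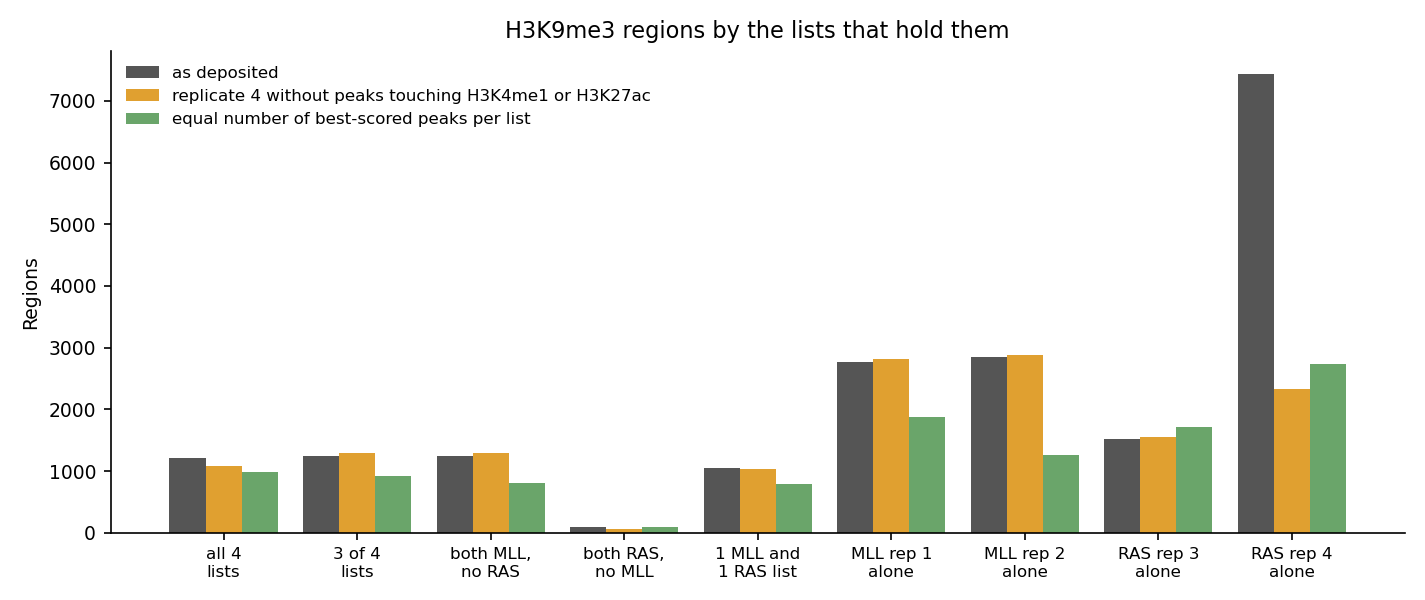
Number of merged H3K9me3 regions by the lists that hold them, for the deposited lists (grey), with the enhancer-marked peaks of replicate 4 left out (orange) and for the 5224 best-scored peaks of each list (green). Regions of both MLL lists (1245, 1285 and 799) outnumber those of both RAS lists (87, 66 and 97), and the grey bar of replicate 4 alone, at 7440, is the tallest.

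The 1245 MLL-only regions were ordinary peaks of their lists by score. In replicate 1 their peaks had a median score of 95.6, against 93.9 for the whole list, and in replicate 2 74.7 against 76.7. They made up 13.8% of the bases of replicate 1 and 12.7% of those of replicate 2. Their median width was 642 bp, against 376 bp for all regions, although a region merged from 2 lists tends to be wider than one of a single list. H3K4me1 or H3K27ac of any list was touched by 2.25% of them, against 29.6% of all regions, but regions of replicate 1 alone and replicate 2 alone had nearly the same shares, 2.02% and 2.07%. By these single-list shares, the scarcity of enhancer marks was not particular to the MLL-only regions. With the filtered replicate 4 the share was 4.90% of the 1285 MLL-only regions against 4.43% of all regions. The filter shapes both of these shares, since it removes enhancer-marked peaks and can turn regions of 3 lists into MLL-only ones. They are therefore no check of the scarcity. H3K4me3 was touched by 6.83% and H3K79me2 by 4.34%, against 12.6% and 26.9% of all deposited regions. The regions of replicate 4 alone, at 57.6%, raise the share of H3K79me2 over all regions, while the regions of replicates 1, 2 and 3 alone had 6.07%, 4.38% and 4.22%. H3K79me2 was touched by 6.15% of MLL-only regions and 9.87% of all regions after the filter on replicate 4. For H3K4me3 the regions of replicates 1 and 2 alone had 2.86% and 2.03%, below the MLL-only regions. H3K27me3 was touched by 6.43%, slightly above the 5.31% of all regions. Regions of replicates 1 and 2 alone had 2.96% and 7.71%. After the filter on replicate 4 the share was 6.23% of MLL-only regions against 6.05% of all regions. At the enhancer marks of the RAS libraries, 6 and 7 of the 1245 regions touched H3K4me1 of replicates 3 and 4, and 10 and 7 touched their H3K27ac, against 2 and 1 for H3K4me1 and 1 and 11 for H3K27ac of replicates 1 and 2. Enhancer marks were thus rare at these regions in libraries of either tag.

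The longest MLL-only regions were looked at singly, after joining regions no more than 1000 bp apart. On chromosome 3, from 25444228 to 25456400, replicate 1 covered 7734 bp and replicate 2 covered 4431 bp, with best scores of 160 and 154. No list of the other 5 marks had a peak there. The next region lay close by on chromosome 3, from 25416337 to 25423418, with 5724 and 4249 bp covered and best scores of 208 and 212. It touched H3K4me3 in 1 list. The third lay on chromosome X from 166442197 to 166446748, with 2481 and 795 bp covered. It neighboured a region on X held by all 4 lists, from 166408193 to 166436263, where 15833, 20452, 3313 and 5722 bp were covered in replicates 1 to 4. Both MLL lists covered more of that neighbouring stretch than both RAS lists did. With the filtered replicate 4, a region on chromosome 1 from 90160897 to 90166880 took the third place, with 5961 and 5146 bp covered in the MLL lists, and it held H3K4me1 peaks in 2 lists. It counted as MLL-only solely through the filter, since it was not among the MLL-only regions of the deposited lists.

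The 87 RAS-only regions were set against all regions and against regions of a single list. Their peaks had a median score of 62.6 in replicate 3, below the 66.2 of that list, and 110 in replicate 4, above its 69.8. They touched H3K4me3 in 33.3% of cases, H3K79me2 in 29.9% and H3K27me3 in 21.8%, against 12.6%, 26.9% and 5.31% of all regions. H3K4me1 and H3K27ac were touched by 16.1% and 17.2%, against 25.2% and 27.4% of all regions. Those shares of all regions are carried by replicate 4 alone, with 64.1% and 63.75%, while regions of replicates 1, 2 and 3 alone had 0.325%, 0.526% and 0.396% for H3K4me1 and 1.88%, 1.82% and 1.71% for H3K27ac. With the filtered replicate 4 the RAS-only shares were 1.52% for H3K4me1 and 0% for H3K27ac, against 0.828% and 4.09% of all regions. Every RAS-only region holds a replicate 4 peak, and the filter removed those that touch either mark. It thus largely set these shares in advance. Of the 66 found with the filtered replicate 4, 25.8% touched H3K4me3, 16.7% touched H3K79me2 and 19.7% touched H3K27me3, against 12.1%, 9.87% and 6.05% of all 14365 regions. With enhancer-marked peaks left out of all 4 lists, the 114 RAS-only regions touched H3K4me3 in 50% of cases and H3K27me3 in 11.4%, against 12.4% and 5.83% of all regions, so the sizes of these shares depended on the filter. They are shares of few regions and were not tested. Of the 87, 10 and 12 touched H3K27me3 in replicates 1 and 2 and 17 and 16 in replicates 3 and 4, which is 11.5% and 13.8% against 19.5% and 18.4%. Over all 19412 regions the shares were also higher with both RAS lists of H3K27me3, at 1.55% and 2.19% against 4.62% and 2.62%, so this direction was not particular to the RAS-only regions.

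The longest RAS-only regions were carried by replicate 4. On chromosome 2, from 164217016 to 164227132, replicate 4 covered 8249 bp with a best score of 1229, and replicate 3 covered 680 bp with a best score of 124. It touched neither H3K4me1 nor H3K27ac in any list, and it touched H3K79me2 in 3 of 4 lists. On chromosome 16, from 17802437 to 17808081, replicate 4 covered 5195 bp and replicate 3 covered 510 bp, and H3K4me1, H3K79me2 and H3K27me3 were present in all 4 of their lists. The third, on chromosome 8 from 73118860 to 73122701, had 2895 bp in replicate 4 and 304 bp in replicate 3. After the filter the third place went to chromosome 12 from 50483734 to 50486968, with 1371 bp in replicate 3 and 1470 bp in replicate 4, the most even of these regions. It carried H3K27me3 and H3K4me3 in all 4 of their lists.

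Regions held by all 4 lists showed what the H3K9me3 libraries had in common. Their median width was 1594 bp and their median best score 505. They made up 41.3% and 47.4% of the bases of replicates 1 and 2 and 64.5% and 31.3% of those of replicates 3 and 4. H3K4me3 was touched in any list by 62.4% of them, against 12.6% of all regions. All regions had a median width of only 376 bp, and a wider region can touch a mark more often by size alone. The contrast was not tested with widths made equal. Most of these contacts were with H3K4me3 of replicate 4, at 54.4%, while replicates 1, 2 and 3 of H3K4me3 gave 15.0%, 27.7% and 25%. H3K27ac was touched by 21.1%, and here 233 of the 1212 regions touched the H3K27ac list of replicate 2, against 10, 32 and 20 for replicates 1, 3 and 4. H3K4me1 was touched by 2.23%.

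**Figure D3:**
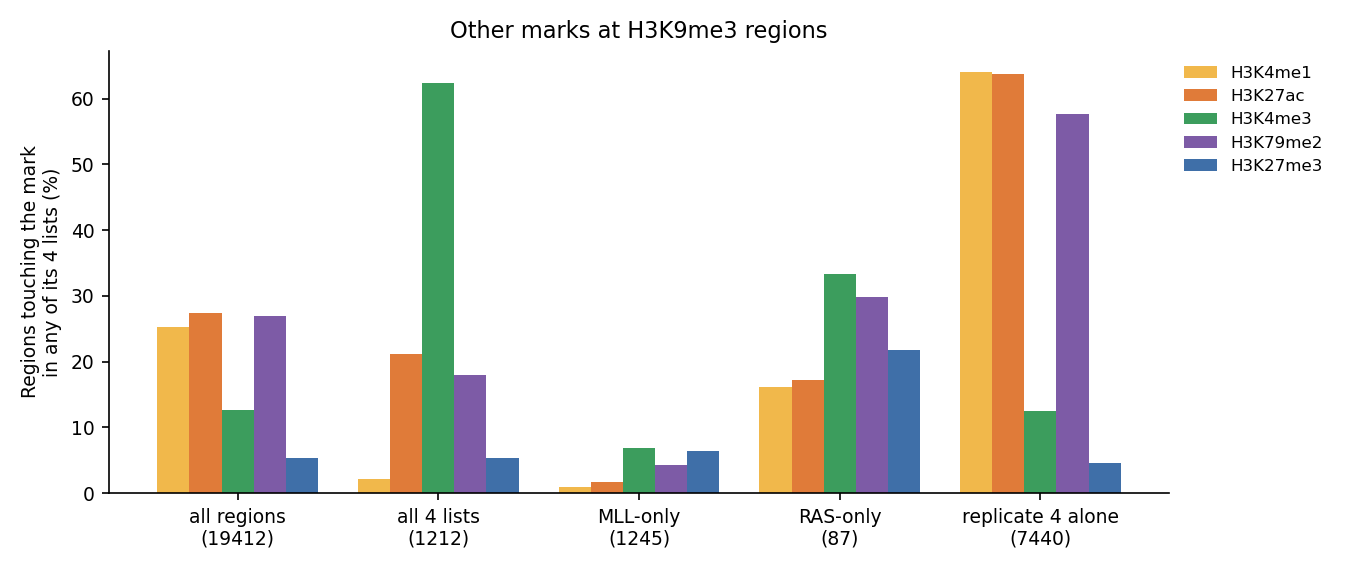
Share of H3K9me3 regions (%) that touch each other mark in any of its 4 lists, for all regions, regions in all 4 lists, MLL-only, RAS-only and replicate 4 alone, with the number of regions in brackets. H3K4me3 reaches 62.4% at regions of all 4 lists, H3K4me1 and H3K27ac reach 64.1% and 63.75% at regions of replicate 4 alone, and no mark exceeds 6.83% at MLL-only regions.

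The longest regions of all 4 lists differed in the marks beside them. On chromosome 11, from 3025841 to 3059241, 4792, 19586, 9335 and 25197 bp were covered in replicates 1 to 4. H3K4me1 peaks were present there in 4 of 4 lists, and H3K27ac and H3K4me3 peaks in 3 lists each. Input samples were not used, so whether these peaks are specific to their marks was not tested. On chromosome 10, from 81593122 to 81625930, 26031 and 22509 bp were covered in MLL and 12906 and 16358 bp in RAS, with best scores between 1625 and 3100. H3K4me3 and H3K79me2 were present there in 4 of 4 lists and H3K4me1 in none. With the filtered replicate 4, a region on chromosome 8 from 71815099 to 71842251 joined them, with 24216 and 13784 bp in MLL and 11625 and 8928 bp in RAS, and with H3K4me3 in 4 of 4 lists.

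H3K9me3 was concentrated in few parts of the genome in tumours of both tags. In windows of 1 Mb, the 50 fullest of 2652 windows held 39.1% and 35.5% of the covered bases in the MLL lists and 44.9% and 26.8% in the RAS lists. The fullest window on average was chromosome 17 from 22000001 to 23000000, which ranked first in replicates 1, 2 and 3 and came next to the top in replicate 4. It held 3.81% and 3.17% of the covered bases in MLL and 4.05% and 1.25% in RAS. Chromosome 10 from 81000001 to 82000000 followed, with 2.18% and 2.31% in MLL and 2.50% and 0.956% in RAS, and then chromosome 13 from 67000001 to 68000000, with 1.85% and 1.57% against 2.07% and 0.890%. In all 3 windows replicate 3 had the highest share and replicate 4 the lowest, so that the MLL lists lay between the RAS lists. The shares of the filtered replicate 4 were 1.71%, 1.22% and 1.18% and stayed the lowest.

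The spread of peaks over chromosomes was then compared. Of 21 chromosomes, 5 (23.8%) had a higher share of peaks in both MLL lists than in either RAS list. Another 3 (14.3%) had a higher share in both RAS lists. The first were chromosomes 5, 9, 10, 14 and X, and the others were 8, 12 and 18. With no difference between tags, 1 of the 6 splits of 4 lists would still put both MLL lists on top, and 1 both RAS lists. The counts were not tested against that level, and the named chromosomes are a description. With the filtered replicate 4 the counts were again 5 (23.8%) and 3 (14.3%), with chromosome 11 in the place of chromosome 10. Chromosome 8 held 4.98% and 5.11% of the peaks in MLL and 6.37% and 10.4% in RAS, or 9.02% in the filtered replicate 4. Chromosome 9 held 5.25% and 6.06% in MLL and 4.06% and 3.93% in RAS. Chromosome X held 1.03% and 1.32% in MLL and 1.01% and 0.338% in RAS, so replicate 3 lay next to replicate 1. The call for chromosome 12 was just as narrow, with 5.33% and 4.42% in MLL against 5.36% and 6.02% in RAS. With a single library left out the counts reached 12 chromosomes (57.1%) higher in MLL and 6 (28.6%) higher in RAS without replicate 3, and 9 (42.9%) and 9 (42.9%) without replicate 4. With replicate 1 or replicate 2 left out they were 7 (33.3%) and 4 (19%). A missing list leaves fewer conditions to meet, so these counts cannot be lower than those of all 4 lists.

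The largest chromosome difference was that of a single library. Chromosome 15 carried 190 and 225 peaks in the MLL lists, 73 in replicate 3 and 1053 in replicate 4. These were 2.60% and 2.64% of the MLL lists, 1.40% of replicate 3 and 9.36% of replicate 4, so the RAS lists were the lowest and the highest. Of the 1053 peaks, 67.1% touched H3K4me1 or H3K27ac, and the filtered replicate 4 still had 6.08% of its peaks on chromosome 15. Chromosome 6 showed 3.75% and 3.90% in MLL against 3.66% and 6.84% in RAS, and chromosome 19 showed 1.71% and 2.19% against 1.67% and 4.17%. Chromosomes 13 and 17 were low in replicate 4, at 4.04% and 5.51%, against 7.02% to 7.35% and 8.998% to 10.4% in the other 3 lists.

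**Figure D4:**
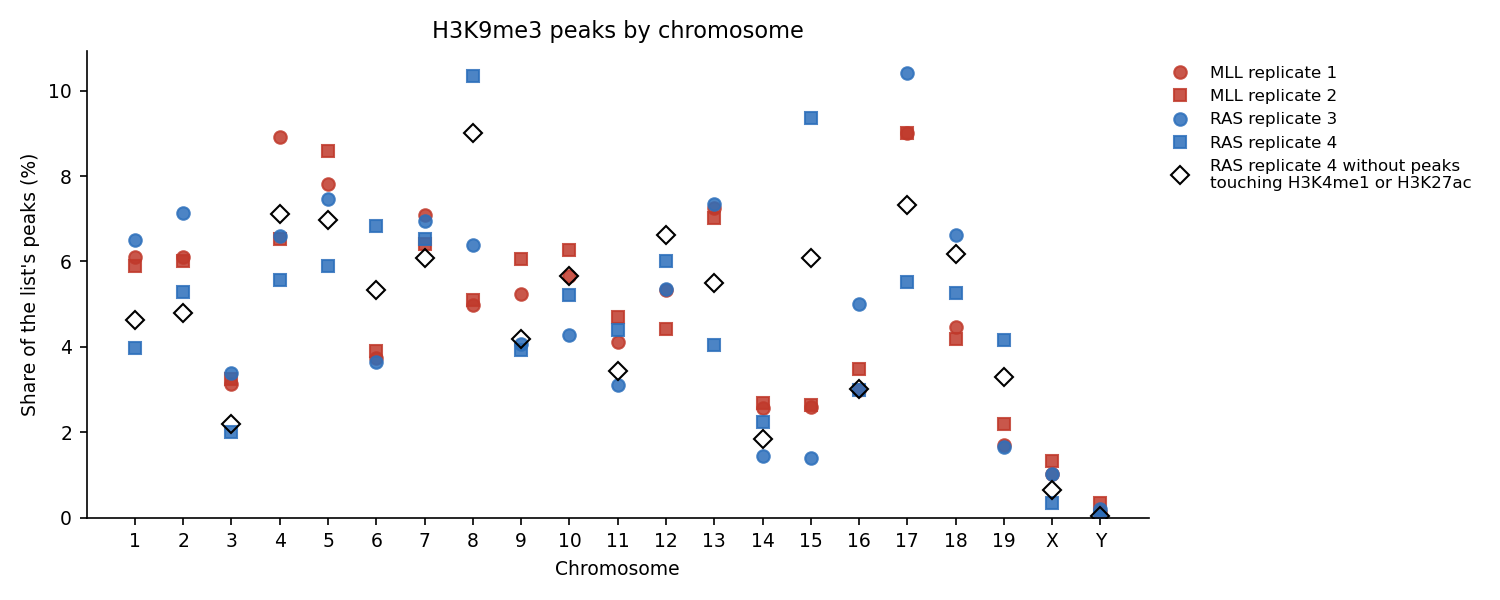
Share of each list's H3K9me3 peaks (%) on every chromosome, red for the MLL lists and blue for the RAS lists, with the filtered replicate 4 as open diamonds. Replicate 4 stands highest on chromosome 15 (9.36%) and chromosome 8 (10.4%) and lowest on chromosome 13 (4.04%), and its diamonds lie nearer to the other lists there.

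Some other marks of the same replicate number leaned to the same chromosomes. The share of a chromosome in replicate 4 was divided by the mean share in the other 3 lists of the mark. For H3K9me3 this ratio was 4.23 on chromosome 15, 2.25 on chromosome 19, 1.89 on chromosome 8 and 1.81 on chromosome 6. For the filtered list it was 2.75, 1.77, 1.64 and 1.41. H3K4me1 of replicate 4 gave 1.46, 1.18, 1.18 and 1.38 on these chromosomes, and H3K27me3 gave 1.21, 1.40, 1.21 and 1.21. H3K79me2 gave 0.936, 0.937, 1.02 and 1.04. Over the 19 autosomes the log2 ratios of the filtered H3K9me3 list correlated with those of H3K4me1 (Pearson's r 0.916, Spearman's rho 0.881) and H3K27me3 (0.827 and 0.811) most closely. The same values were 0.579 and 0.586 for H3K4me3, 0.343 and 0.411 for H3K27ac, and -0.176 and -0.00877 for H3K79me2. For the deposited list they were 0.864 and 0.811 for H3K4me1, 0.819 and 0.896 for H3K27me3, 0.358 and 0.251 for H3K4me3, 0.275 and 0.309 for H3K27ac, and -0.196 and -0.156 for H3K79me2. The points share a replicate number and the same 3 comparison libraries of each mark, and the values are a description.

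Replicate 3 had a pattern of its own. Chromosome 16 had a ratio of 1.58 for H3K9me3, 1.41 for H3K4me1 and 1.81 for H3K27me3, and chromosome 18 had 1.43, 1.13 and 1.26. Chromosome 15 was low, at 0.287, 0.766 and 0.716, although the high replicate 4 is part of the mean it is set against. Over the 19 autosomes r with H3K4me1 was 0.767 and r with H3K27me3 was 0.709 for replicate 3. The same values were 0.438 and 0.401 for replicate 1 and 0.798 and 0.458 for replicate 2. The other marks varied between libraries. With H3K4me3, r was -0.0259, 0.705 and -0.244 in replicates 1, 2 and 3. With H3K27ac it was 0.347, -0.182 and 0.530, and with H3K79me2 -0.415, 0.0255 and -0.00733. In replicate 2, r with H3K4me3 was thus above r with H3K27me3. The RAS lists thus parted on chromosome 15, high in replicate 4 and low in replicate 3. They also parted on chromosome 16, where the ratio was 1.58 in replicate 3 and 0.784 in replicate 4. The high replicate 3 is part of the mean behind the second ratio. Replicate 4 held 3.00% of its peaks on chromosome 16, against 2.99%, 3.48% and 5.00% in replicates 1, 2 and 3. Chromosome 18 did not set them apart, with 1.21 in the filtered replicate 4 and 1.03 in the deposited list. What set the chromosome shares of single libraries was not tested.

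**Figure D5:**
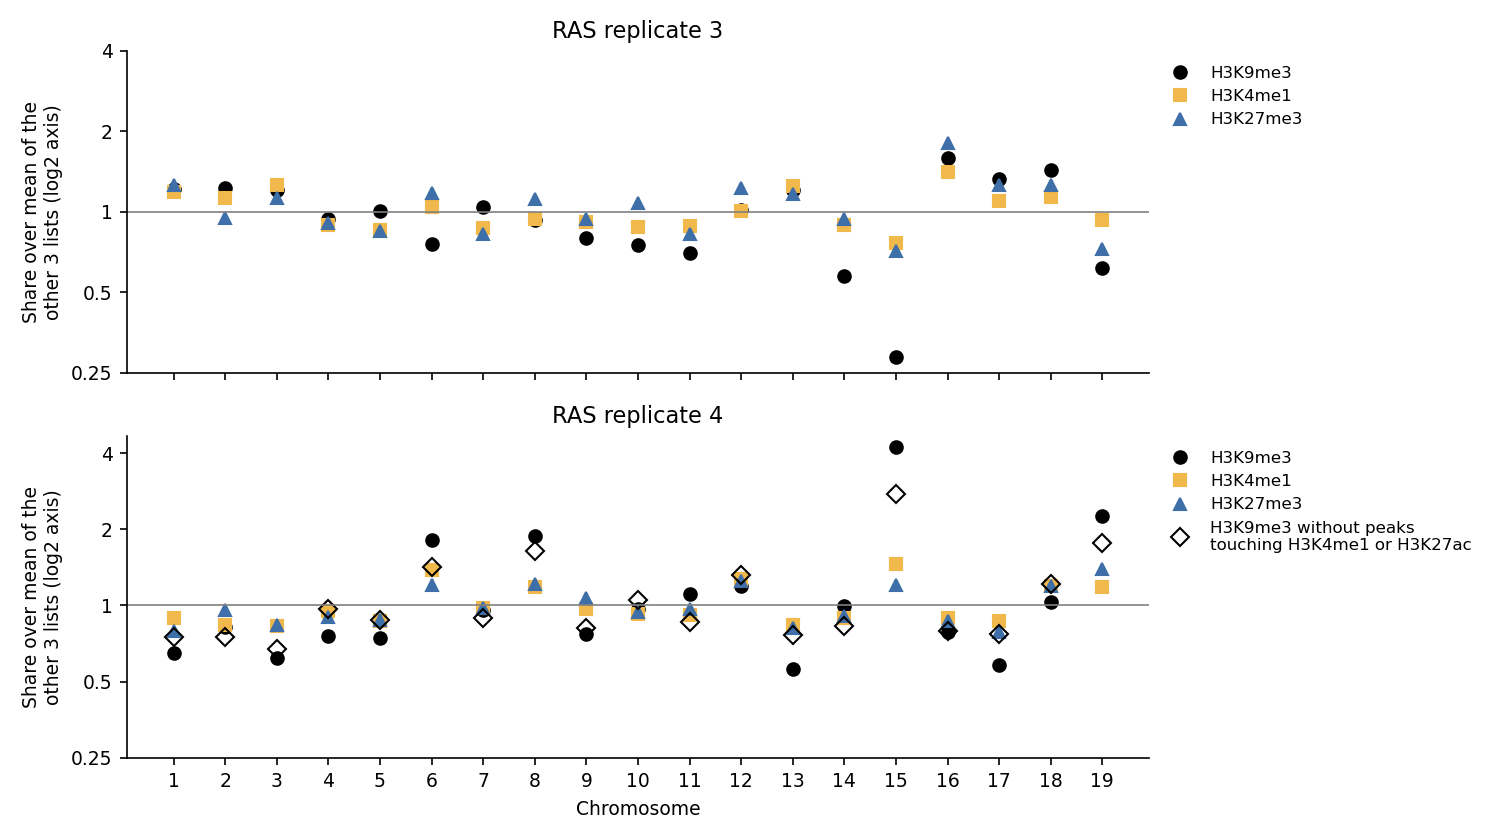
Ratio of a chromosome's share of peaks in replicate 3 (top) or replicate 4 (bottom) to its mean share in the other 3 lists of the mark, on a log2 axis, for H3K9me3 (black), H3K4me1 (orange) and H3K27me3 (blue), with the filtered H3K9me3 list of replicate 4 as open diamonds. In the deposited lists all 3 marks lie above 1 on chromosomes 6, 8, 12, 15, 18 and 19 in replicate 4, and on chromosomes 1, 3, 12, 13, 16, 17 and 18 in replicate 3.

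H3K27me3, the other repressive mark, was set beside H3K9me3 in the libraries of the same replicate numbers. Its lists held 20047 and 47790 peaks in MLL and 38344 and 43490 in RAS, and covered 10.8 and 23.7 Mb against 102.5 and 32.5 Mb. The log2 differences, MLL minus RAS, were -0.40 for peak number, -1.85 for covered length and -1.14 for median width. For H3K9me3 they were 0.0426, 0.47 and 0.36. The marks had opposite signs in all 3 measures, but the H3K9me3 signs turn when single libraries are left out, as given above. For H3K27me3 the tags overlapped in peak number, where replicate 2 (MLL) held more peaks than either RAS list. They did not overlap in covered length or in median width, which was 412 and 337 bp in MLL and 1487 and 455 bp in RAS. The difference between the marks was not tested.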

How the data were processed

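The authors deposited 1 peak list per antibody library, with chromosome, start, end, peak name and score. Per the submitters' processing notes, CASAVA 1.7, Bowtie, MACS and deepTools were used and the build was mm9; settings and filters are not given in the sources used here. The score deposited by the authors was never below 50.01 in the 4 H3K9me3 lists. The tags were taken from the lists' names. The members, lists and comparisons were chosen with earlier results of these data known. With Python 3.11.15, numpy 2.4.6 and scipy 1.17.1, peak number, covered bases, widths and overlaps of at least 1 bp were computed per list, the functions were tested on simulated lists, and figures were drawn with matplotlib 3.10.9. Log2 values (percentages for shares) were compared by exact two-sided permutation over the 6 splits, or the 3 pairings for similarity, with Benjamini-Hochberg adjustment over 5 tests. Regions were named by rule: the 3 longest regions in all 4 lists, in both MLL lists alone and in both RAS lists alone, with chromosome 18 skipped and gaps of up to 1000 bp closed. Alternatives were other filters on replicate 4 or all lists, the median score (75.1), equal list lengths, merging, autosomes alone and leaving out each library. Input samples were not used here.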

Additional observations from a re-analysis of the deposited data

Results flagged for a closer look

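In 29 measures of the 4 H3K9me3 lists (4 sizes and similarities, 4 shares of touched marks and 21 chromosome shares), the most distant list was set against the other 3, and 5 measures had a list beyond Dixon's 95% critical value. Chance flags about 1 in 20, or 1.45 of 29, and the measures are not independent. All 5 were replicate 4. That list had been singled out beforehand for its peaks at H3K4me1 or H3K27ac, so its distance in that share is a description and no test, and the other 4 measures were taken on the same peaks. Its share of peaks touching H3K4me1 or H3K27ac was 49.4%, against 5.53% to 7.47% in the others, and its share touching H3K79me2 was 43.6%, against 8.50% to 10.2%. It was highest on chromosome 15 (9.36%, against 1.40% to 2.64%) and chromosome 6 (6.84%, against 3.66% to 3.90%) and lowest on chromosome 13 (4.04%, against 7.02% to 7.35%).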

How the results depend on the processing

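No paired analysis was possible because the MLL and RAS lists share no replicate number. None of the 5 tests could pass the threshold in this design, so only direction and size are compared here. Merging peaks closer than 1 kb turned the sign of the log2 difference in peak number, to -0.00119. With 1 library left out at a time, it lay between -0.510 and 0.596, that of covered length between -0.287 and 1.22, that of median width between -0.0914 and 0.812, and that of similarity between -0.0805 and 0.169. The difference in the share at enhancer marks lay between -43.5 and -1.58 percentage points and kept its sign. MLL-only regions ranged from 1692 to 4737 (9.43% to 26.3% of the regions of that setting) and RAS-only regions from 187 to 7536 (1.12% to 42%), where a missing list leaves fewer conditions to meet. Chromosomes higher in MLL numbered 7 to 12 and those higher in RAS 4 to 9. MLL-only regions numbered 799 (7.15%) with equal list lengths, and RAS-only regions numbered 43 (0.496%) among peaks at or above the median score; the cause was not tested.

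Some alternatives were chosen after seeing the data. Filtering replicate 4 and also making list lengths equal gave 713 MLL-only regions (6.62%). The filter could only lower the peak number and covered length of replicate 4, a RAS list. With the filtered replicate 4, 1 of the other 3 libraries was also left out. The difference in peak number (0.422 to 0.647) and in covered length (0.697 to 1.23) then kept its sign. That in median width ranged from -0.0758 (without replicate 1) to 0.828, and that in similarity from -0.0844 (without replicate 1; -0.0543 without replicate 2) to 0.174. MLL-only regions then numbered 1872 (14.5%, without replicate 3), 4212 (36%, without replicate 2) and 4848 (37.4%, without replicate 1), and RAS-only regions 134 (1.15%, without replicate 2), 186 (1.43%, without replicate 1) and 2412 (18.7%, without replicate 3). Without replicate 3, 12 chromosomes were higher in MLL and 6 in RAS. The depth of the libraries is unknown, which limits every count of peaks.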
